A study of Mus musculus with 4 samples.

Results

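Retained-intron transcripts are spliced RNAs in which an intron, or a piece of one, has stayed in the molecule; the GENCODE annotation of the mouse, release 21 (GENCODE M21), gives them a class of their own. The 4 deposited files listed 21451 such transcripts in 9140 genes. For each gene the retained-intron share was taken: the estimated reads on its retained-intron transcripts as a percentage of the reads on all its transcripts. Genes entered when they had a mean of at least 200 reads in each group and a mean of at least 20 retained-intron reads over the groups. Of the 9140 genes, 5801 passed the first minimum and 3896 passed both. These 3896 member genes hold 12525 retained-intron transcripts: 800 genes have 1, the other 3096 have 2 or more, the median is 3 and the highest number is 16. The read numbers that chose the genes come from the same libraries that are compared below, so the shares are given as a description.

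The RNA came from the hippocampus of 4-month-old mice of the C57BL/6J strain with the alleles P2RY12CreER and Rpl22HA, a RiboTag line in which an inducible Cre, driven from a microglial gene, puts a tag on a ribosomal protein so that tagged ribosomes and their messages can be pulled down. All mice were fear conditioned. Those of the group titled Control then slept for 6 h, and those titled SD (sleep deprived) were kept awake for 6 h. Each group has 2 deposited files, each from a pool of 2 mice and described as a technical replicate; the treatment label names sleep deprivation for all 4, so the titles set the groups, and how Cre was induced is not given in the labels used here.

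Replicate files were compared first, and those of 1 group were closer to each other than sampling noise allows for separate libraries. Chi-square per degree of freedom over genes was 0.335 between the Control files and 0.207 between the SD files, against 73.7 to 73.9 between files of different groups. For retained-intron reads summed per gene it was 0.84 and 0.688, and for single retained-intron transcripts 1.25 and 1.21. The mean of the files was therefore used as 1 library per group, no p-value is given, and differences between mice or pulldowns cannot be told apart from the effect of treatment. The files held 14431647 to 14877011 estimated reads.

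The label of the cells was checked against marker genes. The 40 microglial markers summed to 507 CPM (counts per 1000000 reads after TMM scaling) in the Control library and 1383 CPM in the SD library. The 18 neuronal markers stood above them, at 5870 and 5026 CPM. Astrocyte markers summed to 3266 and 2243 CPM, oligodendrocyte markers to 4060 and 2615 CPM, and endothelial and mural markers to 375 and 440 CPM. Marker sums of neurons, astrocytes and oligodendrocytes thus stood above that of microglia in both libraries, and that of endothelial and mural cells below it. The mixture of marker messages differed between the groups. The lists differ in their number of genes, so the sums do not rank the amount of message per cell type. The part of this mixture in the results below was not tested. In bulk RNA, fewer cells of a type and less RNA per cell cannot be told apart. Only 1 of the 40 microglial markers is a member gene, against 9 of the 18 neuronal markers.

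An intron is normally cut out by the spliceosome, which recognises a 5′ splice site that nearly always opens with GT, a branch point, and a 3′ splice site that closes with AG. Some introns are removed slowly, and their polyadenylated transcripts can be held in the nucleus (often called detained introns) or reach the cytoplasm, where an in-frame stop codon can send them to nonsense-mediated decay. Genes for SR proteins and the kinases that phosphorylate them are known for such introns, and in neurons intron-holding transcripts have been described as a store that activity can release. A transcript in the retained-intron class need not be a full message: many annotated ones are fragments that begin or stop inside an intron.

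Short introns of genes on both sides of the comparison can be printed whole, with both splice sites. Whole introns are shown first for 5 member genes whose retained-intron share was higher in the SD library, each lying between coding exons and inside an exon of the gene's most changed retained-intron transcript. Sequences are from the GENCODE M21 transcripts on GRCm38 (the assembly also named mm10), 5′ to 3′ on the strand of the gene; the capitals mark the first 6 and the last 3 bases of the intron.
Cirbp intron, chr10:80170765-80170981, plus strand: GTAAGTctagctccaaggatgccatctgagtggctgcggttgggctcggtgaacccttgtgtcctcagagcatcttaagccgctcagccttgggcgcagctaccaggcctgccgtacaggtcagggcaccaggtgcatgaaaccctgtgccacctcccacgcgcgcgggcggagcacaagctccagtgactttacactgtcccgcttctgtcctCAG
Eno2 intron, chr6:124762762-124763004, minus strand: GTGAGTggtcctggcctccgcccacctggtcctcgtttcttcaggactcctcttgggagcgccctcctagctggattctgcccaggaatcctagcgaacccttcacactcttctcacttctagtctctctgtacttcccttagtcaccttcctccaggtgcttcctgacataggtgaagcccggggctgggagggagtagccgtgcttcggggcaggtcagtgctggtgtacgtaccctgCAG
Ndufb10 intron, chr17:24722221-24722380, minus strand: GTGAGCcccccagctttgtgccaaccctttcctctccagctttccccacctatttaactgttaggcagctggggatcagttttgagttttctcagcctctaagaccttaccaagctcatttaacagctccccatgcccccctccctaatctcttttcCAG
Tbc1d25 intron, chrX:8156505-8156650, minus strand: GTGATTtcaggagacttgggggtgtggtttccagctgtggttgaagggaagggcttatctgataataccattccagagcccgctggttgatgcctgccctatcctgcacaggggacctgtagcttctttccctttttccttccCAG
Qars intron, chr9:108515034-108515106, plus strand: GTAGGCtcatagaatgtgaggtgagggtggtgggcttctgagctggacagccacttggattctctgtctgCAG

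The second set holds whole introns of genes whose share was lower in the SD library, chosen because they can be set beside the first set.
Nxf1 intron, chr19:8767149-8767227, plus strand: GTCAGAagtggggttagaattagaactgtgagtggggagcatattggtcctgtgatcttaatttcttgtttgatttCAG
Vars intron, chr17:35013193-35013264, plus strand: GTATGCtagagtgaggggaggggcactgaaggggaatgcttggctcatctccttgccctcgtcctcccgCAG
Wdr90 intron, chr17:25861084-25861184, minus strand: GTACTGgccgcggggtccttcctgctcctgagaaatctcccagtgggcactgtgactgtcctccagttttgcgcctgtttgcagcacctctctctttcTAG
Ss18l2 intron, chr9:121710472-121710638, plus strand: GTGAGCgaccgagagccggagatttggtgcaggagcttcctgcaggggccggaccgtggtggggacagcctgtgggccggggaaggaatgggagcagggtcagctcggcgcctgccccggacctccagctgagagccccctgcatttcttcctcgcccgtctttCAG

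For longer introns of genes with large gains, only the ends are shown, with 3 bases of exon in lower case outside the capitals.
Srsf6 5′ end of the intron at chr2:162932143-162932814, plus strand: gcaGTGAGTccttacccccgcgcgctccgc
Srsf6 3′ end of the same intron: caagtccttgatgtttcaatttgaAAGtga
Srpk1 5′ end of the intron at chr17:28599870-28600242, minus strand: ttgGTATAAaagagcattgcagcagtgact
Srpk1 3′ end of the same intron: catgcatccttttctgtttgttctTAGaag
Tial1 5′ end of the intron at chr7:128443947-128444280, minus strand: cagGTAATTcaatttttcttagcatctttt
Tial1 3′ end of the same intron: ctaaaacagtcatttgctttttccTAGgtt
Cyc1 5′ end of the intron at chr15:76343693-76344301, plus strand: cagGTGAGTcctggcgcgggccccgaccat
Cyc1 3′ end of the same intron: ggcaggtgctgagcggggctcttgCAGgca
Wdr73 5′ end of the intron at chr7:80900712-80901184, minus strand: attGTAAATtggcccgtgggcgggtctgat
Wdr73 3′ end of the same intron: cgtgatttttgtaaccctatcctgCAGgta

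Read over all member genes, 5846 different introns of coding transcripts lie whole inside an exon of a retained-intron transcript. Of these, 98.5% open with GT, 99.5% close with AG, and 93.1% lie between coding exons. Their median length was 268 bases and their median GC content 51.5%. The leading transcript of a gene is here its retained-intron transcript with the most reads over both groups. Among introns of the leading transcripts the median length was 423 bases in genes that gained share, 190.5 in genes that lost it and 320 in the rest. The strong 5′ splice site GTAAGT, which opens the Cirbp intron above, stood at 9.27% of all these introns. Among introns of the leading transcripts it stood at 10.4% in genes that gained share, 10% in genes that lost it and 9.44% in the rest, so this 5′ splice site was about as frequent in each. GTATCC and ATATCC, the openings typical of introns removed by the minor (U12) spliceosome, were read on the transcript strand at the first base of the intron only; 42 introns in 38 member genes had one. Of these 38 genes, to be read against 14.5% gained and 6.44% lost over all members under the size rule given below, 10 gained share (9930104L06Rik, Ankzf1, Drap1, Ift80, Mapk12, Mau2, Polr2e, Sms, Tcea2 and Trappc2) and 1 lost it (Mapk11). These 38 genes all hold a whole retained intron, and of genes led by a transcript with a whole coding intron 20.8% gained and 5.72% lost. The matched intron need not lie in the leading transcript: 7 of the 719 introns of leading transcripts in gaining genes had such an opening. A match of these letters describes the sequence and does not show which spliceosome removes the intron.

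Retained-intron transcripts held 10.6% of the reads of each Control file and 13.3% of those of each SD file. Between the libraries the difference was 2.62 percentage points (10.6% with an exact 95% interval of 10.63 to 10.66, against 13.3% with 13.25 to 13.29); intervals here and below cover counting error only. Protein-coding transcripts took 80.0% of the Control reads and 77.8% of the SD reads in each file. Mitochondrially encoded RNA took 3.19% and 3.22% of the Control files and 1.52% of each SD file, and without it the retained-intron difference was 2.48 points.

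The shift was spread over many genes and went mostly one way. A gene was called gained or lost when its share differed by at least 10 percentage points and the 95% interval of the difference (Newcombe's method) excluded 0. Of the 3896 member genes 566 gained share in the SD library (14.5%), 251 lost it (6.44%) and 3079 did neither. Since these are the percentages over all members, the counts for gene lists below are to be read against them. The share was above its Control value in 2627 genes (67.4%) and below it in 1267. Its median over genes was 12.6% in the Control and 16.5% in the SD library, and the median change was 1.83 points, with quartiles of −0.95 and 6.24.

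Files of a group are repeats of 1 library and agreed more closely than sampling noise allows. Calls between them can therefore understate even technical noise, and they say nothing about differences between mice. The same rule called 21 genes (0.539%) between the Control files and 18 (0.462%) between the SD files. The median absolute difference was 0.459 points between the Control files and 0.501 points between the SD files, against 4.13 points between the groups. Repeats of 1 library must lie close, so this contrast does not measure how far separate libraries would differ. In 470 of the 566 gaining genes and 183 of the 251 losing genes every pair of a Control and an SD file differed by at least 10 points. Files of the groups did not overlap in all 566 gaining genes and in 250 of the 251 losing genes, but this held for 90.1% of all members and so singles out none.

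**Figure D1:**
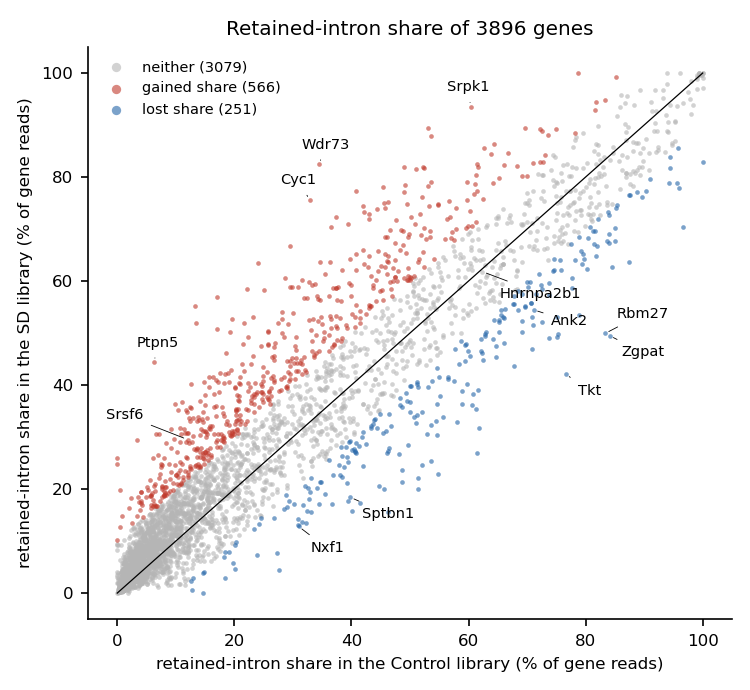
Retained-intron share of 3896 genes in the Control library (x axis) and the SD library (y axis), both in percent of the gene's reads, with 1 point a gene; the line marks equal shares. The 566 genes called gained (red) lie above the line and the 251 called lost (blue) below it, with Srpk1, Wdr73 and Cyc1 among the farthest above and Zgpat, Tkt and Rbm27 among the farthest below.

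Genes that lost share stood higher to begin with. The median gaining gene went from 24.9% to 41.9%, and the median losing gene from 55.1% to 38.8%. Retained-intron reads were the majority of the gene's reads, above 50%, in 621 genes of the Control library and 708 of the SD library; 171 genes crossed that line upward and 84 downward. Among the 974 genes with the highest Control share, 19.1% gained and 21.3% lost. A high Control share helped to choose both the losses and this ordering, so the pattern is a description.

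Other transcript classes did not show the same one-sided shift under the same minimums. In SD against Control, for transcripts annotated as targets of nonsense-mediated decay, 170 of 1345 genes gained share (12.6%), 225 lost it (16.7%) and the median change was 0.07 points; the files of a group gave calls in 5.06% (Control) and 5.87% (SD) of these genes. For processed transcripts, which hold no open reading frame, 123 of 1405 genes gained (8.75%), 216 lost (15.4%) and the median was −0.18 points, with calls in 1.57% and 1.92% between files of a group. These shares of a gene are parts of 1 whole and are not independent of the retained-intron share.

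A share can move through either of its parts, so the retained-intron reads and the other reads of each gene were set apart on the TMM-scaled CPM scale. Over all members the median ratio of SD to Control was 1.37 for retained-intron reads, 1.06 for other reads and 1.10 for the whole gene. In gaining genes the medians were 1.99 for retained-intron reads and 0.828 for other reads, and in 391 of the 566 the former were higher and the latter lower in the SD library. In losing genes they were 0.789 and 1.58, and in 162 of the 251 the retained-intron reads were lower and the other reads higher. The whole-gene ratio was alike, at 1.13 in gaining and 1.10 in losing genes. Of the gaining genes, which the call selects for such a rise, 275 had at least 2-fold more retained-intron reads, against 871 of all 3896 members, while 19 had a whole-gene total at least 2-fold higher and 4 at least 2-fold lower. Gene totals at least 2-fold higher or lower made up 1.49% and 1.23% of the 8698 genes with at least 200 reads in each library.

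**Figure D2:**
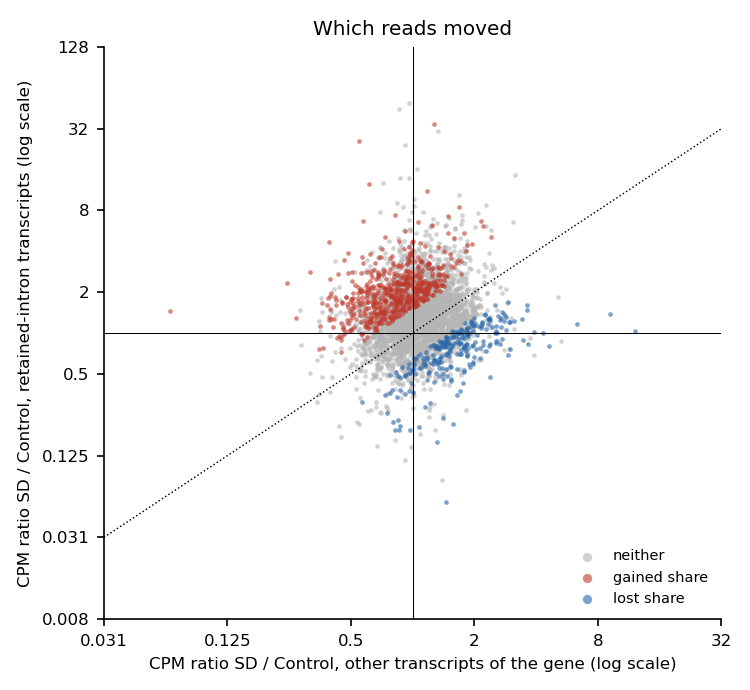
Ratio of SD to Control CPM (log scales) for the retained-intron transcripts of a gene (y axis) against its other transcripts (x axis), with 1 point a gene; the dotted line marks equal ratios and the solid lines a ratio of 1. Of the members 3875 are drawn, and 21 with a ratio that is 0, undefined or beyond the axes are not; most gaining genes (red) lie to the upper left and most losing genes (blue) to the lower right.

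What the retained-intron transcripts are made of differed between gains and losses. Of the 12525 transcripts, 4396 (35.1%) hold at least 1 whole coding intron, 3221 (25.7%) start inside an intron, 3494 (27.9%) end inside one, 1228 (9.80%) do both and 186 fall in none of these classes. Those with a whole intron held 5.43% and 5.41% of the reads of the Control files and 7.27% and 7.25% of those of the SD files. Those that start inside an intron held 3.75% of each Control file and 3.91% of each SD file. As CPM ratios the summed reads of these classes stood at 1.39 and 1.08. Transcripts that end inside an intron stood at 1.55, and those that both start and end inside an intron at 1.48.

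Each gene was then placed by its leading transcript, the retained-intron transcript with the most reads over both groups. For single genes named below, the leading transcript is instead the one whose share moved most in the direction of the gene's change. Of the 1782 genes led by a whole-intron transcript 370 gained (20.8%) and 102 lost (5.72%). Of the 1264 led by a transcript that starts inside an intron 133 gained (10.5%) and 137 lost (10.8%). Transcripts that end inside an intron led 535 genes, of which 34 gained (6.36%) and 6 lost (1.12%). Of 265 genes led by a transcript that starts and ends inside an intron 18 gained (6.79%) and 1 lost (0.377%). Of 50 led by a transcript of no class 11 gained and 5 lost. Gains thus outnumbered losses in every class but the 3′ fragments that start inside an intron, where the percentage of losing genes was largest.

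Position along the gene differed too, in a way that depended on how it was measured. Within 100 bases of the 3′ end of the gene the leading transcript ended in 162 of the 251 losing genes (64.5%), 239 of the 566 gaining genes (42.2%) and 18.4% of the others. With genes ordered by the midpoint of that transcript from the 5′ to the 3′ end, 4 equal groups of 974 gained share in 12.8%, 26.5%, 11.6% and 7.19% of genes and lost it in 1.64%, 5.13%, 8.42% and 10.6%. The second group holds midpoints of 0.458 to 0.668 of the gene's length, where a transcript that spans the whole gene has its own. Genes were also ordered by the distance from the transcript's 3′ end to that of the gene. The nearest 974 genes, at up to 106 bases, then held 24.7% gained and 16.7% lost, and the farthest 974 held 4.52% and 1.13%. Spearman's rho between this distance and the change was −0.03. Genes with few introns gained more often: from the 974 genes with the fewest introns to those with the most, 20.8%, 18.9%, 13.1% and 5.24% gained and 4.62%, 5.34%, 5.65% and 10.2% lost. Spearman's rho between intron number and change over the 3896 genes was −0.26. In genes led by a whole-intron transcript, gains went from 14.8% among the 446 with the shortest summed intron length to 28.9% among the 446 with the longest. The GC content of the introns showed no such order (rho −0.01 over 1782 genes). Leading transcripts were chosen by their reads in the same libraries that are compared, so these are descriptions.

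**Figure D3:**
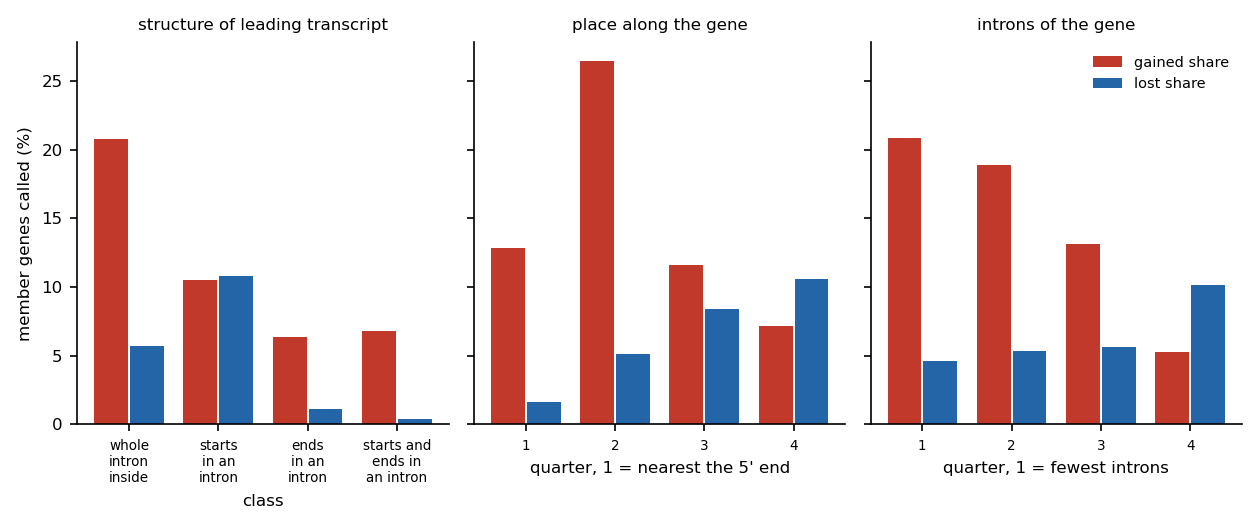
Percentage of member genes that gained (red) or lost (blue) retained-intron share, by the structure of the leading transcript, by its place along the gene and by the number of introns in the gene, with place and intron number in 4 equal groups of 974 genes; the 50 genes led by a transcript of no class are not drawn. Place is the midpoint of the leading transcript. Gains reach 20.8% for whole-intron transcripts and 26.5% in the second group along the gene. Losses exceed gains in the group with midpoints nearest the 3′ end and in the genes with the most introns.

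Some annotated transcripts differ little from the coding message. In 382 member genes the leading transcript has fewer than 100 bases outside coding exons, and of these 35 gained share (9.16%) and 60 lost it (15.7%). In the remaining 3514 genes 531 gained (15.1%) and 191 lost (5.44%). Reads on the shared bases are divided by the quantifier's model, so a call in the first set rests on few bases. Where this holds for a gene named below, it is said beside its values.

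The largest gain was in Wdr73, a WD repeat protein gene. Its share was 22.5% and 46.4% in the Control files and 84.0% and 80.9% in the SD files, a change of 47.96 points (95% interval 42.8 to 52.7). The Control files stood apart, and with either of them alone the change was 36.1 or 60.0 points. Cyc1, which encodes cytochrome c1 of respiratory complex III, had 33.4% and 32.3% against 76.4% and 74.8%. Its retained-intron reads went from 45.3 to 124 CPM and its other reads from 92.5 to 40.2 CPM. Both kinds of read therefore moved in Cyc1, in opposite directions.

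The next genes in size had the same form. Map1s, a microtubule-associated protein gene, had 13.8% and 12.9% in Control and 55.1% and 55.4% in SD. Pms2, a DNA mismatch repair gene, had 18.5% and 15.5% against 49.8% and 63.9%. Poglut1, whose product adds glucose to Notch, had 14.1% and 12.8% against 53.5% and 50.4%. In each of the 3 the SD files stood far above both Control files, while the Pms2 SD files differed from each other by more than its Control files did. Ptpn5, the brain phosphatase known as STEP, had 5.71% and 6.90% against 36.3% and 52.5%, from 1.75 to 8.16 CPM of retained-intron reads, which is a low level. Tbc1d25, a regulator of Rab GTPases whose 146-base intron is printed above, had 32.9% and 15.4% against 67.7% and 59.3%. Its leading transcript Tbc1d25-202 accounted for the whole change, at 24.1% in the Control and 63.6% in the SD library. Zbtb48, a telomere-binding zinc finger gene, had 27.8% and 31.2% against 67.9% and 65.6%, and Rasa4, a Ras GTPase-activating protein gene, 39.3% and 42.4% against 77.8% and 76.7%.

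**Figure D4:**
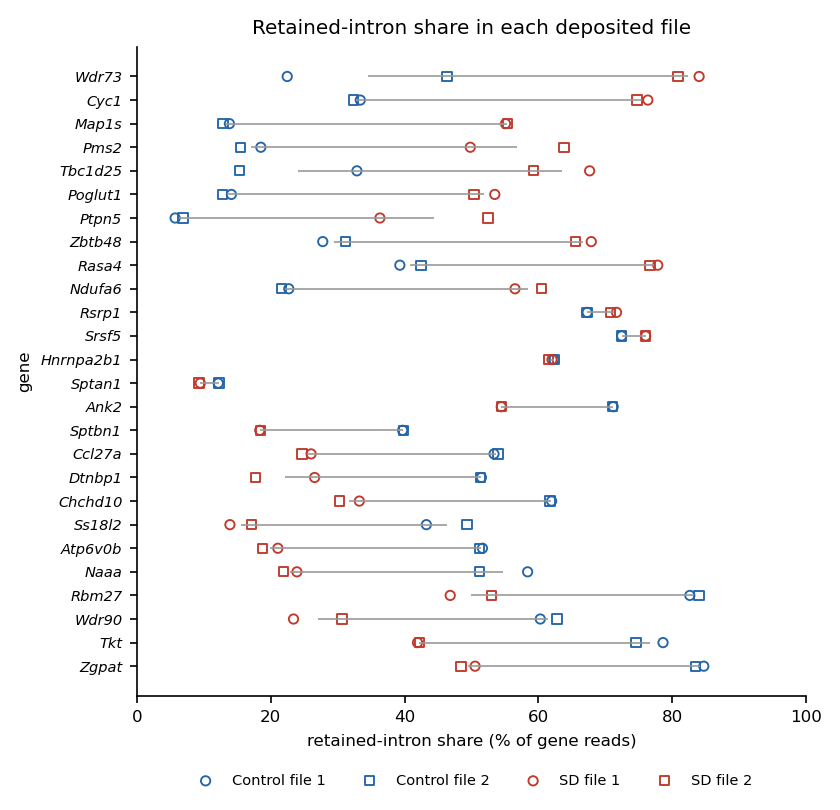
Retained-intron share in percent of the gene's reads in each of the 4 deposited files (circles file 1, squares file 2; blue Control, red SD) for the 10 largest gains, the 6 genes with the most retained-intron reads and the 10 largest losses; grey lines join the group means. Blue and red markers are apart in every gene drawn except Hnrnpa2b1, whose shares lie between 61.6% and 62.5%, and the Control files of Wdr73 and Tbc1d25 are the widest spread pairs.

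The largest losses were led by 3′ fragments more often than by whole introns. Zgpat, a zinc finger and G-patch repressor gene, had 84.7% and 83.5% in Control and 50.5% and 48.4% in SD, a change of −34.60 points (−36.7 to −32.4). Its retained-intron reads were 121 and 142 CPM while its other reads went from 22.8 to 145 CPM, so the share differed through the other transcripts. Of the 31-base stretches of its leading transcript, 41.5% also occur in the overlapping gene Lime1. Against protein-coding and retained-intron reads alone the Zgpat change was −2.15 points, so the loss rests on reads of its remaining transcript classes. Wdr90, a WD repeat gene with a 101-base intron printed above, had 60.3% and 62.8% against 23.4% and 30.7%. There too retained-intron reads stayed level, at 26.3 CPM in both libraries, and other reads went from 16.4 to 71.1 CPM. As a share of TPM the Wdr90 change was −1.65 points, below the size rule.

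In other losing genes the retained-intron reads themselves were lower. Tkt, transketolase of the pentose phosphate pathway, had 78.6% and 74.6% in Control and 41.9% and 42.2% in SD, and its retained-intron reads went from 38.3 to 14.4 CPM. Against protein-coding and retained-intron reads alone its change was −9.84 points. Ss18l2 had 43.3% and 49.3% against 13.9% and 17.1%, and its leading transcript, which holds the 167-base intron shown above, went from 33.7% of the gene's reads to 0. Dtnbp1, the dysbindin gene of lysosome-related organelles and synapses, had 51.5% and 51.3% against 26.6% and 17.7%. Naaa, which hydrolyses fatty acid ethanolamides, had 58.4% and 51.2% against 23.9% and 21.9%. All 4 genes were called, and the widest spread between files of a group among them was in the SD files of Dtnbp1.

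For several of the largest losses the leading transcript has few bases of its own. Rbm27, an RNA-binding protein gene, had 82.6% and 84.0% in Control and 46.8% and 53.0% in SD, with 22 bases of its leading transcript outside coding exons. Atp6v0b, a subunit of the proton-pumping V-ATPase, had 51.6% and 51.2% against 21.1% and 18.8%, with 21 such bases; without transcripts of fewer than 100 such bases its change was −9.03 points. Chchd10, a mitochondrial protein gene, had 62.0% and 61.7% against 33.2% and 30.2%, with 87. In the chemokine gene Ccl27a the share was 53.4% and 54.0% against 26.0% and 24.7%, but 13 such bases carry it and 65.5% of the stretches of Ccl27a-212 occur in other genes; without transcripts of fewer than 100 such bases its change was 9.12 points upward.

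The genes with the most retained-intron reads were led by the membrane skeleton. Sptbn1, beta-II spectrin, had 39.7% and 39.8% in the Control files and 18.4% and 18.5% in the SD files, a change of −21.35 points. Its retained-intron reads went from 2282 to 586 CPM and its other reads from 3455 to 2594 CPM. The leading transcript, Sptbn1-207 on chr11:30099396-30103249, keeps an intron of 1592 bases at the 3′ end of the gene and carried 38.9% and 17.2% of the gene's reads. So in Sptbn1 both kinds of read were lower, the retained-intron reads by more. Ank2, ankyrin-B, which ties spectrin to membrane proteins, had 71.2% and 71.1% against 54.5% in each SD file. That change rests on Ank2-216, which has 1 base outside coding exons, and without transcripts of fewer than 100 such bases it was 0.77 points; on TPM it was −7.91 points, short of a call. Sptan1, alpha-II spectrin, went from 12.2% and 12.3% to 9.47% and 9.26%, below the size needed for a call.

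The other abundant ones are genes of splicing and RNA binding whose share was not called. Hnrnpa2b1, an RNA-binding protein of RNA transport and splicing, had 62.3% and 62.5% in Control and 62.0% and 61.6% in SD. Its share stayed nearly level while its retained-intron reads went from 839 to 1467 CPM, because the other reads had nearly the same ratio (1.75 and 1.79). Srsf5, an SR protein gene, had 72.5% and 72.4% against 76.0% in each SD file, with retained-intron reads at 736 and 2152 CPM, a ratio of 2.92, and other reads at a ratio of 2.42. Rsrp1, an arginine and serine rich protein gene, had 67.3% in each Control file and 71.7% and 70.8% in the SD files. On shares of TPM the changes were 9.45 points in Hnrnpa2b1, 7.72 in Srsf5 and 8.57 in Rsrp1, and against protein-coding and retained-intron reads alone the Rsrp1 change was −0.58 points. The direction in Hnrnpa2b1 and Rsrp1 thus depends on the scale. None of the 3 was called, and in Hnrnpa2b1 and Srsf5 the retained-intron reads moved with the gene.

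Among splicing factors, 6 of 15 SR protein genes and 5 of 8 kinase genes gained share and none of either lost it. SR proteins bind exons through an arginine and serine rich domain and help to define splice sites. Of 18 SR protein genes 15 are members; 6 gained share (Son, Srsf11, Srsf2, Srsf3, Srsf6 and Srsf7), none lost it, and the median change was 5.25 points, against 14.5% gained and a median of 1.83 over all members. In this list retained-intron reads had a median ratio of 1.72 and other reads of 1.23.

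Srsf6 had the largest gain of the SR proteins. Its share was 12.1% and 11.9% in the Control files and 29.4% and 29.6% in the SD files. Retained-intron reads went from 57.6 to 313 CPM (ratio 5.43) and other reads from 422 to 747 CPM (ratio 1.77), so both were higher in the SD library and the former by more. All of it lay on Srsf6-204 (chr2:162931528-162935208, plus strand), the only retained-intron transcript of the gene, which holds the intron ends printed above. Srsf11 had 53.1% and 53.9% against 68.8% and 70.6%, with other reads lower in the SD library (414 and 294 CPM).

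The kinases that phosphorylate SR proteins had the highest median of any list drawn. Of 8 member genes 5 gained (Clk2, Clk3, Clk4, Srpk1 and Srpk3), none lost, and the median change was 10.5 points. Srpk1, the cytoplasmic SR protein kinase, had 59.3% and 61.4% in Control and 93.2% and 93.9% in SD. Its retained-intron reads went from 69.5 to 162 CPM and its other reads from 45.7 to 11.2 CPM, which left the intron-holding transcripts as nearly all of the gene's reads. Clk2, a CDC-like kinase, had 26.2% and 27.1% against 41.5% and 41.9%. Clk1, named after its values were seen because its introns are a known case of detained splicing, had 35.2% and 35.8% against 41.6% in each SD file, a change of 6.14 points that was not called. The list of genes known for detained introns, which shares Clk1 and Clk4 with the kinases, had 3 of 9 members gained (Ccnl1, Ccnl2 and Clk4), none lost and a median of 4.01 points. Ccnl1, a cyclin that works with splicing kinases, had 37.3% in each Control file and 51.1% and 51.7% in the SD files. Against protein-coding and retained-intron reads alone its change turned to −6.60 points, so the direction in Ccnl1 depends on which other transcripts are counted. On TPM the Ccnl1 change was 8.62 points, short of a call. Ccnl2 had 57.6% and 56.9% against 69.4% and 69.5%, but with whole-intron transcripts alone its change was 1.45 points.

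Core and regulatory splicing factors were mixed. Of 42 members of the spliceosome list 7 gained (among them Bud31, Nono, Prpf39, Snrnp70, Tial1 and U2af2) and 4 lost (Prpf3, Rbm17, Snrpa and U2af1l4), with a median change of 1.66 points, close to that of all members. Tial1, an RNA-binding protein of splicing and stress granules, had 21.1% and 20.7% in Control and 42.0% and 41.2% in SD, and its retained-intron reads went from 81.8 to 266 CPM. In U2af1l4, a relative of the small U2AF subunit, the share was 61.4% and 68.0% against 49.5% and 41.2%, but 96.3% of the stretches of its leading transcript occur in other genes, so its direction is uncertain. Snrnp70, the U1 snRNP protein that takes part in recognising 5′ splice sites, was named after its values were seen for its read number and had 66.5% and 67.0% against 84.6% and 84.5%.

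The hnRNP list, proteins that coat nascent RNA, had 3 of 15 members gained (Hnrnpl, Hnrnpll and Pcbp2) and 1 lost (Hnrnph3), with a median of 2.05 points. Hnrnpl had 25.9% in each Control file and 39.2% and 38.6% in the SD files, and its call was lost against protein-coding and retained-intron reads alone (8.45 points) and with whole-intron transcripts alone (2.82 points). Hnrnph3 had 56.2% and 56.8% against 41.4% and 41.5%. Retained-intron reads were higher in the SD library in Hnrnpl (75.3 and 158 CPM) and lower in Hnrnph3 (181 and 116 CPM). Of 22 DEAD-box and DEAH-box helicase genes 3 gained (Ddx23, Ddx39b and Ddx54), none lost, and the median was 1.56 points. Ddx39b, the helicase that couples splicing to RNA export, had 13.31% and 13.998% against 27.47% and 28.04%. Ddx54 had 16.1% and 18.3% against 38.6% and 42.4%, and 19.5% of the stretches of its leading transcript occur in other genes.

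Factors that act after splicing went both ways. Of 7 RNA export genes none gained and Nxf1, the main carrier of mRNA through the nuclear pore, lost: 31.1% and 30.8% in Control against 12.9% and 12.7% in SD. Retained-intron reads of Nxf1 went from 85.1 to 45.9 CPM and its other reads from 190 to 312 CPM. Its leading transcript holds only the 79-base intron printed above outside coding exons, and without transcripts of fewer than 100 such bases the change was −1.25 points. On TPM the Nxf1 change was −6.45 points, also short of a call. Of 5 genes of nonsense-mediated decay and the exon junction complex Upf3a gained, with 20.6% and 20.7% against 30.8% and 30.7%, and Smg9 lost, with 62.8% and 62.1% against 44.9% in each SD file. Upf3a stood at the edge of the rule: without SD file 1 its change was 9.99 points, and on TPM it was 6.14 points.

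The cold-inducible RNA-binding proteins, whose expression follows brain temperature and the sleep-wake cycle, both stood higher. Cirbp had 27.0% and 26.6% in Control and 41.5% and 39.8% in SD, and gained. Its leading transcript, Cirbp-204 (chr10:80167886-80171137, plus strand), which holds the 217-base intron printed above, went from 7.06% to 19.2% of the gene's reads; with whole-intron transcripts alone the change in Cirbp was 8.56 points, short of a call. Rbm3 had 13.04% and 13.5% against 23.1% and 23.3%, a change of 9.98 points, which is 1 of the members just short of a call. Retained-intron reads went from 27.3 to 62.9 CPM in Cirbp and from 25.6 to 73.6 CPM in Rbm3, while the ratios of their other reads were 1.23 and 1.45.

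Of 54 cytosolic ribosomal protein genes that are members, 18 gained, 2 lost (Rps2 and Rps20) and the median change was 6.84 points. The median ratio of their retained-intron reads was 1.08 and that of their other reads 0.504. Rps24 had 10.8% and 11.1% in Control and 36.8% in each SD file, with retained-intron reads at 48.0 and 87.3 CPM and other reads at 389 and 150 CPM. On TPM its change was 4.74 points, below the size rule. Rpl10a had 43.3% and 41.0% against 74.4% and 72.2%, with other reads at 67.0 and 26.6 CPM. Ribosomal protein genes have many processed copies in the genome: 27.6% of the stretches of the leading Rpl10a transcript and 13.2% of those of Rps24 occur in other genes. Of 26 translation factor genes 4 gained (Eif2b2, Eif3d, Eif3g and Eif3l) and 1 lost (Eif2b1), with a median of 3.72 points. Eif3l, a subunit of the initiation factor eIF3, had 31.3% and 31.7% against 59.1% and 61.4%. Eif2b2, of the guanine exchange factor eIF2B, had 16.8% and 17.0% against 32.2% and 35.8%, from 2.51 to 7.52 CPM of retained-intron reads. With whole-intron transcripts alone its change was 3.42 points, and its leading transcript has only 29 bases outside coding exons.

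Of 35 nuclear genes of oxidative phosphorylation that are members, 12 gained, 1 lost (Cox5a) and the median change was 7.31 points, with a median ratio of 1.31 for retained-intron reads and 0.757 for other reads. Ndufa6, of respiratory complex I, had 22.7% and 21.6% in Control and 56.5% and 60.5% in SD. Ndufb10, of the same complex, had 50.2% and 51.9% against 80.8% and 82.3%, and its leading transcript Ndufb10-202, with the 160-base intron above, went from 19.6% to 40.3% of the gene's reads. Other reads were 24.6 and 9.41 CPM in Ndufb10, and 26.3 and 10.5 CPM in Ndufa6. The mitochondrially encoded RNA of the same libraries was lower too, as given above.

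**Figure D5:**
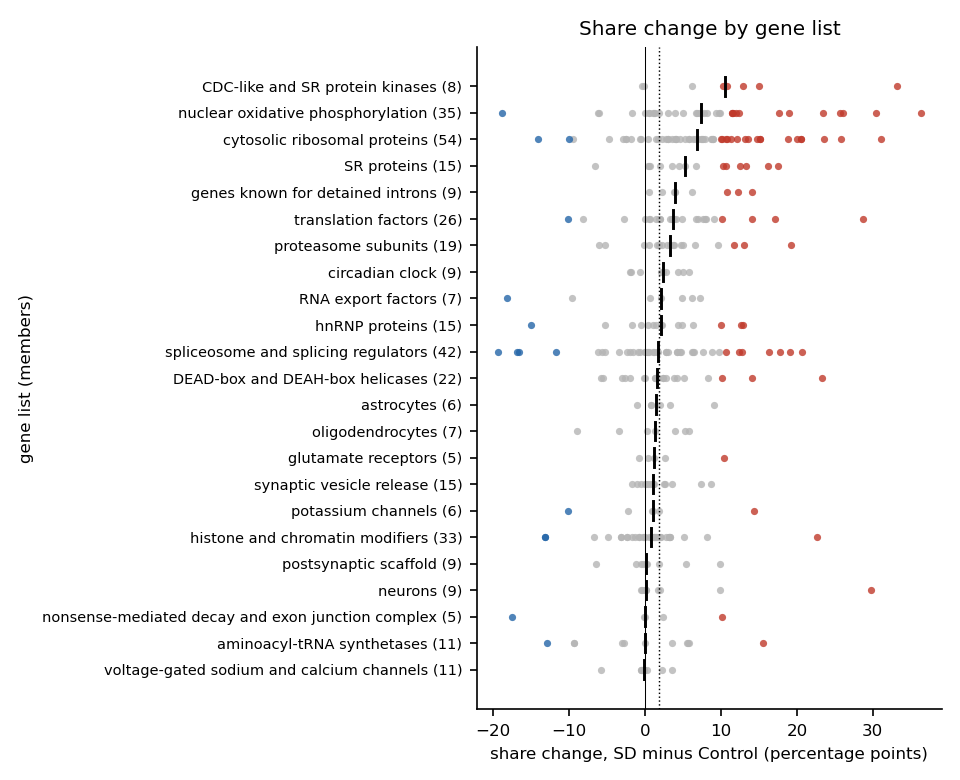
Change in retained-intron share, SD minus Control in percentage points (x axis), for the members of each gene list with at least 5 members (y axis, number of members in brackets); points are genes (red gained, blue lost, grey neither), black bars the list medians, and the dotted line the median of all members, 1.83 points. SR protein kinases (10.5), oxidative phosphorylation (7.31), ribosomal proteins (6.84) and SR proteins (5.25) have the highest medians.

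Of the 19 proteasome members Psma7, Psmd6 and Psmd8 gained and none lost, with a median of 3.31 points. Psmd8, a subunit of the regulatory cap, had 10.5% and 12.6% in Control and 31.3% and 30.4% in SD, and Psma7, of the catalytic core, had 23.5% and 23.1% against 35.9% and 36.8%. The Psma7 call was lost on TPM (7.89 points) and with whole-intron transcripts alone (1.23 points). Among 11 aminoacyl-tRNA synthetases Qars gained, with 57.7% and 56.0% against 73.4% and 71.4%, and Vars lost, with 61.1% and 64.5% against 47.0% and 52.7%. On TPM neither was called, at 4.38 points in Qars and −5.81 in Vars. In Vars the retained-intron reads were 61.3 and 66.3 CPM and the other reads 36.3 and 66.6 CPM, so the share was lower while the intron-holding reads were not. Of 33 histone and chromatin modifiers 1 gained (Smarcb1) and 2 lost (Chd3 and Chd8), with a median of 0.73 points. Smarcb1, a subunit of the SWI/SNF remodelling complex, had 29.3% and 29.1% against 50.9% and 52.7%, and Chd8, a chromodomain helicase, 39.3% in each Control file against 25.5% and 26.7%, a call lost on TPM (−9.12 points).

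Most neuronal gene lists have low retained-intron shares. A share under 10% cannot lose 10 points, and gains of that size were seldom seen at the lowest shares. The 974 members with the lowest Control shares, up to 4.36%, hold 1.95% gained and no lost genes. The few calls in these lists are therefore no sign of stability. Among 15 synaptic vesicle release genes, 9 postsynaptic scaffold genes, 11 sodium and calcium channel genes and 3 genes of inhibitory synapses none was called; their median changes were 1.05, 0.19, −0.19 and 2.30 points, from median Control shares of 1.957%, 1.81%, 3.77% and 1.68%. Grik2, a kainate receptor, gained among 5 glutamate receptor genes, with 40.3% and 41.0% in Control against 50.8% and 51.4% in SD. Of 6 potassium channel genes Kcnt1, a sodium-activated channel, gained, with 22.7% and 22.9% against 37.4% and 36.9%, and Kcnab3, an auxiliary subunit, lost, with 96.1% and 95.6% against 85.1% and 86.2%. The Kcnab3 change of −10.17 points fell below the size rule without Control file 1 (−9.92) or SD file 1 (−9.64), and on TPM (−6.93). The 9 circadian clock members had no call and a median of 2.41 points, and none of the 24 immediate early genes met the minimums for membership.

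Of the 9 neuronal markers that are members 1 was called. Eno2, neuron-specific enolase of glycolysis, had 51.9% and 52.4% in Control and 83.1% and 80.6% in SD. Its retained-intron reads went from 273 to 476 CPM and its other reads from 250 to 105 CPM. The leading transcript, Eno2-203, holds the 243-base intron printed above and went from 39.4% to 61.7% of the gene's reads. None of the 6 astrocyte, 7 oligodendrocyte or 1 endothelial markers was called. The 1 microglial member, Coro1a, an actin-binding protein of leukocytes, had 31.1% and 30.9% against 24.1% and 25.2%; its other reads had a ratio of 1.80, in a library where the microglial markers as a whole stood 2.73 times higher. How far the change in the cell mixture bears on these shares was not tested.

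At the edges of the rule the values were small or uneven. Ccdc167 was just inside the minimum for retained-intron reads, with none in Control and 40.1 in SD, a share of 0 and 3.18%. Nubp2 was just outside, with 21.01 and 18.93 such reads and shares of 8.74% and 7.89%. Pram1 was just inside the gene minimum, with 200 reads in SD and shares of 36.7% and 17.2%, and Acacb just outside, with 199.5 reads in Control and shares of 85.2% and 92.9%. These genes show the level of reads at which membership turns.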

How the data were processed

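Hippocampal ribosome-bound, polyA-enriched RNA was measured in 4 deposited files, 2 per group. Per the file headers each gives, for every transcript, a length, a TPM and a read number. These estimated counts are the authors' fractional values per transcript, deposited without normalization. The TPM values are the authors' length-scaled abundances, used here only as an alternative. Salmon, DESeq2 and mm10 are named per the submitters' processing notes; their versions and the use of strand are not given in the sources used. Salmon divides reads shared by similar transcripts by a model, so shares of overlapping transcripts are estimates.

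Of 116546 transcripts, 115898 (99.4%) matched GENCODE M21 by identifier without version; 181 of these had another length there. Gene totals (35427 genes) and shares were computed from fractional counts, and Newcombe and exact binomial 95% intervals from counts rounded to whole numbers. Reads are not independent molecules, so intervals cover counting error only. Libraries were scaled by TMM in edgeR 4.0.16 (R 4.3.3), with DESeq2 1.42.0 size factors or totals as alternatives. Introns were taken from protein_coding transcripts of GENCODE M21; no genome was used. On simulated counts for the 3896 genes the size rule called 49 of 50 genes raised by 15 points, 50 of 50 lowered by 15, 50 of 50 raised and 50 of 50 lowered by 25, and 2 of 3696 unchanged genes. Changes were simulated only in genes of intermediate share, with Poisson reads and no division of shared reads. The simulation thus does not cover changes at low or high shares or noise from that division. Between files of a group the rule called 21 (Control) and 18 (SD) of the 3896 genes.

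Members and gene lists were chosen with earlier results of these data known. Named genes are the 10 largest gains and 10 largest losses that moved by at least 10 points in all 4 pairs of files, up to 2 called members of each list with the largest change, the 6 members with the most retained-intron reads, and those at the edges of the minimums; others are said to be chosen after their values were seen. 1 member of the spliceosome list is counted but not reported here by name.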

Additional observations from a re-analysis of the deposited data

How the results depend on the processing

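The main counts were 566 genes gaining and 251 losing share, with a median change of 1.83 points and an overall difference of 2.62 points. Leaving out each file in turn gave 560 to 566 gaining and 238 to 254 losing genes, medians of 1.82 to 1.89 and overall differences of 2.60 to 2.64 points. Shares of TPM, which weight short transcripts more, gave 916 gaining genes (340 losing), a median of 3.399 and an overall difference of 6.46 points; 424 of the 566 gains and 164 of the 251 losses were kept, and 4 genes were called the opposite way. Calls at 5 points gave 1153 gaining and 509 losing genes, calls at 20 points 148 and 45, and calls at an odds ratio of 2 gave 906 gaining (250 losing). The median change was 1.66 with a gene minimum of 500 reads, 2.36 with a retained-intron minimum of 50, 0.71 with no such minimum and 1.51 with a minimum of 20 on the sum of the groups, an alternative chosen after seeing the data. The cause of these shifts was not tested, beyond the change in which genes enter. Also chosen after seeing the data, whole-intron transcripts alone gave 367 gaining and 108 losing genes of 2090 and a median of 2.31; leaving out transcripts with fewer than 100 bases outside coding exons gave 537 and 188 of 3694 and a median of 2.04. Without mitochondrially encoded genes the overall difference was 2.48 points. Directions turned in the called genes Ccl27a (9.12 points under both transcript restrictions), Ank2 (0.77 without transcripts of few such bases) and Ccnl1 (−6.60 against protein-coding and retained-intron reads only), and in the uncalled Hnrnpa2b1 (9.45 on TPM) and Rsrp1 (−0.58 against protein-coding and retained-intron reads only). Among the named genes, the call was also lost by Ank2, Ccnl1, Chd8, Kcnab3, Nxf1, Psma7, Qars, Rps24, Upf3a, Vars and Wdr90 on TPM, by Hnrnpl, Tkt and Zgpat against protein-coding and retained-intron reads only, by Ccnl2, Cirbp, Eif2b2, Hnrnpl and Psma7 with whole-intron transcripts alone, and by Atp6v0b and Nxf1 without transcripts of few such bases. Of 57 named genes checked, whole-intron transcripts alone left 36 with the same result, 5 without their call and 1 reversed. Without transcripts of few such bases, 50 had the same result, 2 were without their call and 2 reversed. The remaining genes had no transcripts left or too few reads on them, so no call exists there. Chchd10 is 1 of these under both restrictions, and Dtnbp1, Eif3l, Naaa, Ndufa6 and Poglut1 under the first. DESeq2 size factors and library totals kept the median log2 ratio of retained-intron reads at 0.46 and 0.40, against 0.45 with TMM. The edgeR and DESeq2 tests were not run. No paired analysis was possible because the files of a group are 1 library, which leaves no independent pairs. With 1 library per group, no spread between mice is known.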

Other observations

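In some genes the retained-intron share hides transcripts that moved in opposite directions. In 55 member genes 1 retained-intron transcript was at least 10 points higher and another at least 10 points lower in the SD library, and 11 of these genes were called. The genes given here were chosen after their values were seen. In Slc50a1, a sugar transporter gene, the summed share was 91.9% in the Control and 90.3% in the SD library, while Slc50a1-207 went from 39.9% to 66.6% and Slc50a1-205 from 32.3% to 2.09%. Dus3l, a dihydrouridine synthase gene, had 92.0% and 92.6% in sum, with Dus3l-204 at 56.8% and 83.8% and Dus3l-202 at 28.1% and 0. In Syt9, a synaptotagmin of vesicle release, the sum was 75.2% and 53.1%, with Syt9-202 at 23.3% and 53.1% and Syt9-205 at 51.9% and 0. Ift20, of cilium transport, had 33.8% and 59.4%, with Ift20-204 at 3.62% and 45.5% and Ift20-205 at 30.2% and 13.9%. Values of single transcripts rest on the quantifier's division of shared reads.

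Reln, the secreted glycoprotein that marks a class of interneurons and was named after its values were seen, had a low share that stood just short of a call. It was 2.98% and 2.72% in the Control files and 12.7% and 12.9% in the SD files. Its retained-intron reads went from 12.5 to 75.5 CPM and its other reads from 426 to 516 CPM.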
